A study of Mus musculus with 15 samples.

Results

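Cholesterol genes were followed in mouse liver: 31 genes of sterol synthesis, of its control by SREBP2, and of cholesterol uptake, esterification and efflux. They were taken by gene symbol from a table of 18510 rows, and all 31 were in the table. All 31 also passed the filter on low values (1 FPKM or more in 5 or more of the 15 libraries), as did 10959 genes in all. Liver RNA from 15 wild-type mice was sequenced, in 3 groups of 5. Ctrl mice were on a control diet, Alc mice on an alcohol diet, and Alc UA mice on an alcohol diet with UA, which the labels do not spell out. All groups shared the wild-type genotype, and the sources used here do not give the strain, sex, age, length of feeding or hour of collection. Nothing in the labels says how animals were housed or fed together, so each p-value sets a difference against the spread between these libraries. Levels are FPKM (fragments scaled for transcript length and for the library's mapped fragments), which can be compared between genes. Fold differences in the text are ratios of group mean FPKM, and log2 fold changes are differences of mean log2(FPKM + 1) ± SE, which understate the change of weakly expressed genes. Adjusted p-values are limma's, with Benjamini-Hochberg adjustment over all 10959 genes, and a gene is said to have risen or fallen where that value was under 0.05.

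Cells make cholesterol from acetyl-CoA through mevalonate, isoprenoid diphosphates, squalene and lanosterol. When sterols in the endoplasmic reticulum run low, SCAP carries the transcription factor SREBP2 to the Golgi for cleavage, and the cleaved factor induces the enzymes of the pathway. INSIG proteins hold SCAP back when sterols are high. The liver also disposes of cholesterol: ABCG5 and ABCG8 pump it into bile, ABCA1 loads it onto nascent HDL, and SR-BI takes it up from HDL, while the nuclear receptor LXR induces the ABC transporters.

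Promoter sequences show what is known of the DNA at the starts of these genes. RefSeq (GRCm38.p6) windows from 250 bases before to 50 bases after an annotated start were found for 25 of the 31 genes, 32 windows in all. Both strands were searched for 4 motifs: TCACNCCAC, a form of the sterol regulatory element bound by SREBP; CCAAT, bound by NF-Y; the E-box CACGTG; and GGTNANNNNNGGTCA, a spaced repeat of the kind bound by LXR with RXR. No motif is part of another, and the matches printed below do not overlap. The sterol element was in 1 of the 32 windows, that of Hmgcs1, and in 1.24% of all 32851 promoter windows. CCAAT was in 22 of the 32 windows (68.8%) and in 37.4% of all windows. The E-box was near the starts of 6 of the 25 genes (Abca1, Dhcr7, Hsd17b7, Insig1, Sc5d and Scap, whose 2 windows overlap and share 1 site) against 8.09% of all genes, and the spaced repeat was in 1 window, that of Abca1, against 0.207% of all windows. These matches describe letters in a short window and do not show binding. The windows below belong to some of the genes whose levels differed from Ctrl, and capitals mark the motif matches. Of the 25 genes 5 had several windows, and for a gene with several the one with the most matches was chosen for printing. Hmgcs1 lies on the plus strand (chr13:119690101-119690400), as do Mvk (chr5:114444019-114444318), Lss (chr10:76531355-76531654) and Abcg8 (chr17:84682871-84683170), and Abca1 (chr4:53159846-53160145) and Abcg5 (chr17:84682962-84683261) lie on the minus strand.

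Hmgcs1: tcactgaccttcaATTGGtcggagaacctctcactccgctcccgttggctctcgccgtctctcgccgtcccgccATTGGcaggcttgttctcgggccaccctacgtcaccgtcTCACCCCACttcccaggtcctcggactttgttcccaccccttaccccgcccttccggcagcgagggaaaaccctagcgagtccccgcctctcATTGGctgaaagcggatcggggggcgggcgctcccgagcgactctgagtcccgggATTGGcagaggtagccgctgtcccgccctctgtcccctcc
Mvk: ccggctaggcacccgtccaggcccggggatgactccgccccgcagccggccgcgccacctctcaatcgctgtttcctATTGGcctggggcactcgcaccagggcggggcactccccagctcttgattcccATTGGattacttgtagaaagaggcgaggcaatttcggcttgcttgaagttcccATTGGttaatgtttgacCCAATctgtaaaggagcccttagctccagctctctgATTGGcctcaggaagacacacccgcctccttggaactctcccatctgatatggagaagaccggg
Lss: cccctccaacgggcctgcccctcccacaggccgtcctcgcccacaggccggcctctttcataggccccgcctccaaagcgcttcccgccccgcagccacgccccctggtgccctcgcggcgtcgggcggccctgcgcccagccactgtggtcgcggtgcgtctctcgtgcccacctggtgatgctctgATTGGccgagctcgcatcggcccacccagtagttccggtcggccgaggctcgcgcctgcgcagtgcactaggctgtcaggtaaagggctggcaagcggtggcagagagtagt
Abca1: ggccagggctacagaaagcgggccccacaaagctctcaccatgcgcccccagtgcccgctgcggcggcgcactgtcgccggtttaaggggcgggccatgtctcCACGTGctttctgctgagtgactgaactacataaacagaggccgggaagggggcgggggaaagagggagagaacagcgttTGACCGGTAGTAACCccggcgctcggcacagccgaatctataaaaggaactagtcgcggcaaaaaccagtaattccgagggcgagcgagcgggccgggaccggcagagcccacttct
Abcg5: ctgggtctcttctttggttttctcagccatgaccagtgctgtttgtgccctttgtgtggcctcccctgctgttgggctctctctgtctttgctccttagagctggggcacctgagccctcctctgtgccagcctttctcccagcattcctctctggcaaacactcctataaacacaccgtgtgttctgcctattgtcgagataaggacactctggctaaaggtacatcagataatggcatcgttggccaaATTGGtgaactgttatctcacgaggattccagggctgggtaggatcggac
Abcg8: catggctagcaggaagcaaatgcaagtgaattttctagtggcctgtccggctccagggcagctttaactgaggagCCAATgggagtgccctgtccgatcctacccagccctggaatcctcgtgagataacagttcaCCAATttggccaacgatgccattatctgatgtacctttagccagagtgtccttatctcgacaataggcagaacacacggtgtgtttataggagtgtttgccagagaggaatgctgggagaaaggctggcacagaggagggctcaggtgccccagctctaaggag

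In the Hmgcs1 window the sterol element began 137 bases before the start, and CCAAT in reverse (ATTGG) stood at 4 places. The Mvk window held 5 CCAAT matches and that of Lss 1. In the Abca1 window the spaced repeat began 67 bases and the E-box 147 bases before the start. Abcg5 and Abcg8 are neighbours read away from each other. Their annotated starts were 110 bases apart and their windows shared 209 bases, so the CCAAT match that Abcg5 holds is also one of the 2 in Abcg8.

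All 10 hepatocyte markers averaged at least 1 FPKM in every group, with albumin (Alb) at 14848 to 42149 FPKM across the libraries. Ctrl 1 and Ctrl 5 lay apart from the other controls on the first 2 principal components (45.7% and 14% of the variance): Ctrl 5 was nearest to the alcohol groups on the first, at -6.04 against -48.5 to -30.2, and Ctrl 1 and Alc 4 were highest on the second, at 23.2 and 25.1. Across the tested genes the median log2 fold change was -0.12 in Alc against Ctrl and -0.16 in Alc UA against Ctrl, and quantile normalization moved these to -0.0019 and 0.0038. Of 9 clock genes tested, 7 rose and 1 fell against Ctrl in each alcohol group. Of all tested genes 10.6% rose and 22.8% fell in Alc, and 10.5% and 32.1% in Alc UA. The clock output factor Dbp was 3.09 to 6.65 FPKM in Ctrl, 62.9 to 126 in Alc and 57.9 to 94.0 in Alc UA, Arntl (BMAL1) was 8.07 to 12.3, 1.07 to 1.55 and 0.63 to 1.24, and Nr1d1 (REV-ERBα) was 3.70 to 50.9, 14.7 to 57.8 and 14.4 to 31.3. Nr1d1 did not pass by limma against Ctrl in Alc or in Alc UA (adjusted p = 0.064 and 0.10). Whether the groups were collected at different hours was not tested, and this bears on every comparison with Ctrl. Summed markers of sinusoidal endothelial cells (14 genes, none at 0) were 183 to 522 FPKM in Ctrl, 81.7 to 182 in Alc and 87.9 to 112 in Alc UA, and those of lymphocytes (10 genes) were 11.5 to 63.0, 5.28 to 18.9 and 7.15 to 27.4. Erythroid genes (5, of which 5 fell in each alcohol group against Ctrl) summed to 1431 to 8800, 576 to 988 and 346 to 1033. Kupffer and macrophage markers (12 genes) summed to 64.9 to 447, 181 to 305 and 210.2 to 668, stellate and fibroblast markers (9 genes) to 176 to 535, 164 to 278 and 124 to 288, and cholangiocyte markers (6 genes) to 26.3 to 201, 24.8 to 103 and 18.95 to 61.4. In such bulk tissue fewer cells of a type and less RNA per cell cannot be told apart.

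In control liver the genes spanned from 1.2 ± 0.618 FPKM for Mvd to 286 ± 16.95 for Lcat (mean ± SD, n = 5 here and throughout). Lcat, the plasma enzyme that esterifies cholesterol on HDL, Insig2 (205 ± 31.9) and the sterol isomerase Ebp (102 ± 6.65) were the highest. Sc5d (69.4 ± 8.07), Scarb1 (55.7 ± 9.60) and Tm7sf2 (54.1 ± 22.3) followed, and the spread of these last 3 overlapped. The sterol enzymes differed widely in level: Sqle, the epoxidase that commits squalene to sterols, was 2.67 ± 0.368, and lanosterol synthase (Lss) was 1.93 ± 0.331. In Ctrl, 17 of the 31 averaged over 10 FPKM and 7 were under 4.

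**Figure D1:**
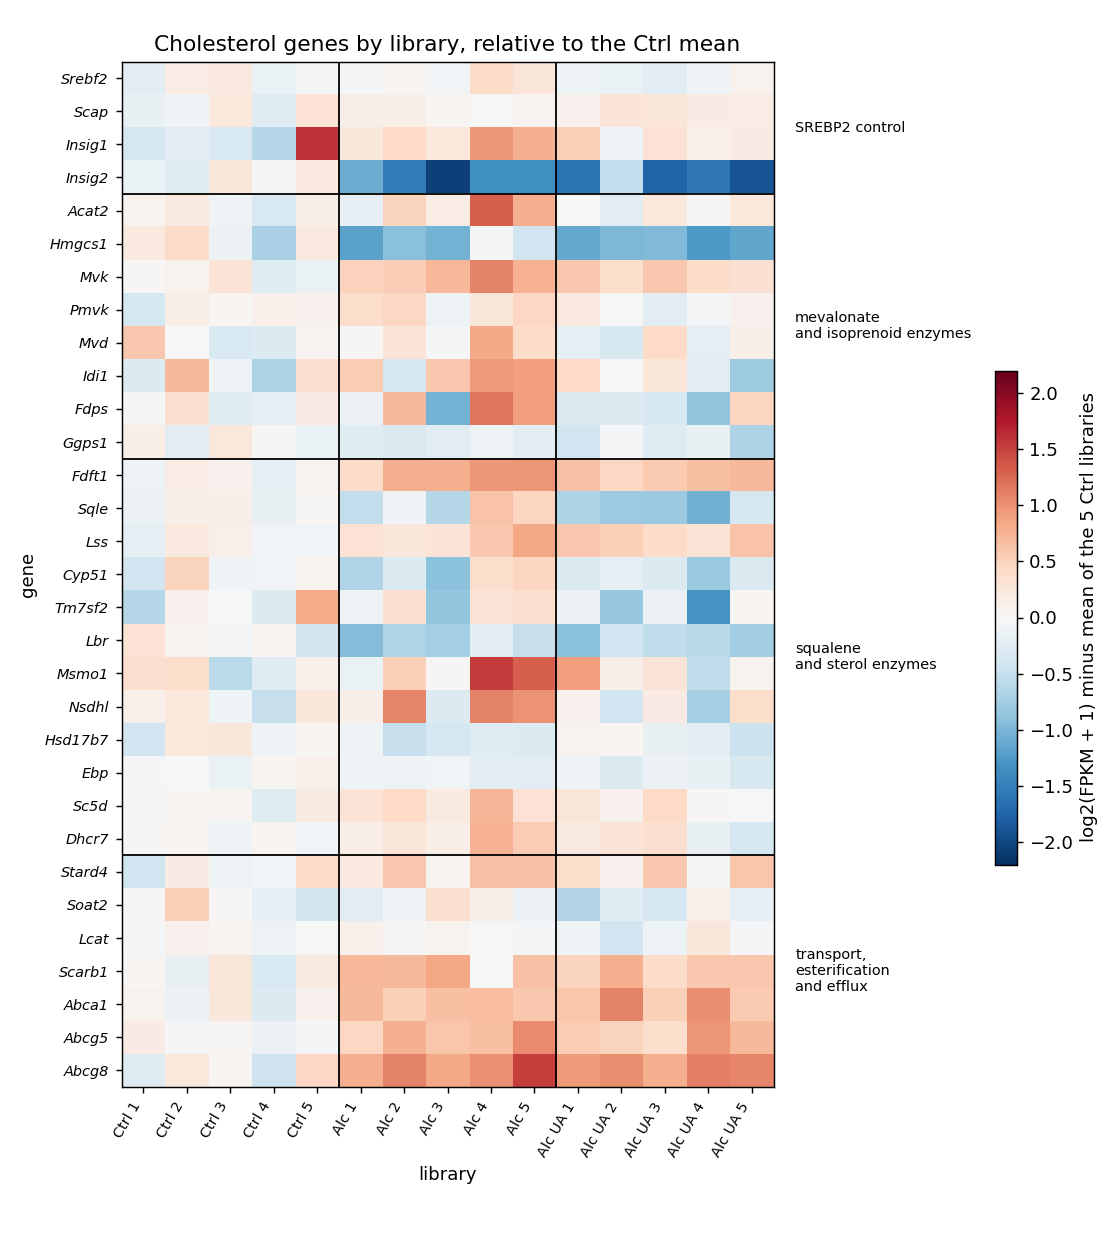
Levels of the 31 cholesterol genes in 15 libraries, as log2(FPKM + 1) minus the mean of the 5 Ctrl libraries (colour), ordered by role with libraries in columns. Insig2 is low in all 10 alcohol libraries, Abcg5, Abcg8 and Abca1 are high in all 10, and Insig1 is high in Ctrl 5.

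On the alcohol diet the genes moved both ways. Efflux and uptake genes (Abcg8, Abcg5, Abca1, Scarb1) and 4 synthesis enzymes (Fdft1, Mvk, Lss, Sc5d) were higher in Alc than in Ctrl, by 1.33-fold to 2.12-fold. Insig2, Hmgcs1 and Lbr were lower, by 2.77-fold, 1.66-fold and 1.81-fold. In all, 8 of the 31 rose and 3 fell, while 10.6% of all tested genes rose and 22.8% fell (33.3% either way). Log2 fold changes were above 0 for 23 of the 31 and for 35.7% of all tested genes, with medians of 0.33 and -0.12. With quantile normalization 10 rose and 3 fell, beside 18.7% and 18.5% of all tested genes. Scaling by median-of-ratios size factors gave 11 risers and 2 fallers, beside 20.1% and 15.3%, and with library sums made equal 12 and 2, beside 14.6% and 11.8%. With library weights 14 rose, and Hsd17b7 fell as well as Insig2, Hmgcs1 and Lbr, beside 16.6% of all tested genes that rose and 36.9% that fell. Without Alc 3, 13 rose and the fallers were again Insig2, Hmgcs1 and Lbr, beside 9.83% that rose and 23% that fell. Without Ctrl 1 and Ctrl 5, 9 rose and 3 fell, beside 10.3% and 23.2% of all. Without Ctrl 1, Ctrl 5 and Alc 4, 8 rose and 4 fell, beside 9.05% and 24.7%. Both of these last sets were chosen after seeing the data. Alc lay wholly above Ctrl for 7 of the 31 (6.18% of all tested genes) and wholly below it for 1, Insig2 (9.61% of all).

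**Figure D2:**
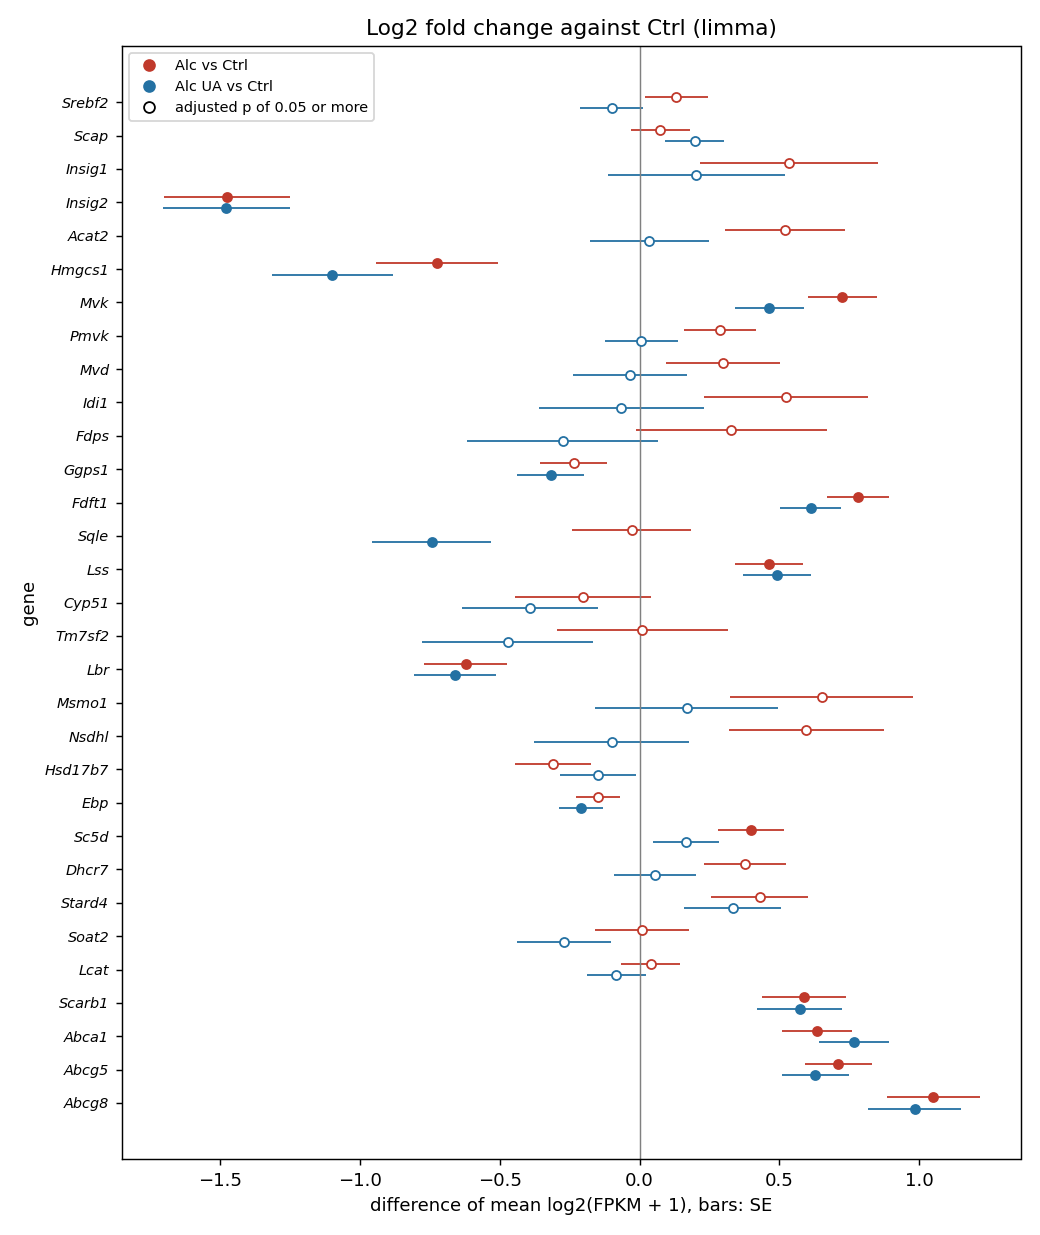
Log2 fold change of each gene in Alc (red) and Alc UA (blue) against the same 5 Ctrl libraries, as the difference of mean log2(FPKM + 1) with its SE (horizontal axis), filled where the limma adjusted p was under 0.05. Insig2 lies farthest left in both comparisons, at -1.48 in each, and Abcg8 farthest right, at 1.05 and 0.98.

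Among the genes that control SREBP2, the change was in Insig2. This gene encodes the INSIG form that is not itself an SREBP target, and in mouse liver it is known to be rhythmic. It was 184, 168, 241, 197 and 235 FPKM in Ctrl 1 to Ctrl 5, 94.4, 69.6, 48.2, 79.0 and 79.3 in Alc 1 to Alc 5, and 66.0, 139, 58.9, 67.4 and 53.5 in Alc UA 1 to Alc UA 5. The lowest control stood above the highest alcohol library, which was Alc UA 2. Insig2 fell by 1.48 ± 0.23 in Alc against Ctrl (adjusted p = 3.9e-04).

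Insig1, the SREBP-induced form, was 16.2, 18.3, 16.9, 13.7 and 66.7 FPKM in Ctrl 1 to Ctrl 5 and 26.1, 29.7, 25.5, 43.0 and 38.0 in Alc 1 to Alc 5. Every Alc library was above 4 of the controls and below Ctrl 5. The log2 fold change of 0.53 ± 0.32 did not pass (adjusted p = 0.20), and without Ctrl 5 it was 0.93 and passed (adjusted p = 5.9e-04), as it did with library weights (0.72, adjusted p = 0.0081). The ratio of Insig2 to Insig1 was 9.17 to 14.4 in Ctrl 1 to Ctrl 4 and 3.52 in Ctrl 5, and it was 1.84 to 3.62 in Alc and 2.1 to 6.91 in Alc UA. Srebf2 itself, at 5.97 ± 0.928 in Ctrl and 6.65 ± 1.14 in Alc, and the escort gene Scap, at 21.7 ± 4.15 and 22.6 ± 0.985, did not pass (log2 fold changes 0.13 ± 0.11 and 0.07 ± 0.10, adjusted p = 0.39 and 0.60).

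Among the early enzymes of the pathway, Hmgcs1 fell and Mvk rose. Hmgcs1, the cytosolic synthase that makes HMG-CoA, was 43.5, 49.96, 34.1, 22.3 and 43.4 FPKM in Ctrl 1 to Ctrl 5 and 16, 19.3, 17.5, 36.1 and 27.3 in Alc 1 to Alc 5. Ctrl 4 was low and Alc 4 high, so that the groups overlapped. Hmgcs1 fell by 0.72 ± 0.22 (adjusted p = 0.020). That call ended without Ctrl 2 or Alc 1, under size factors or equal library sums, and when both Ctrl 1 and Ctrl 5 were left out (adjusted p = 0.051 to 0.091).

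Mvk, mevalonate kinase, went the other way. It was 2.70, 2.82, 3.45, 2.01 and 2.29 FPKM in Ctrl 1 to Ctrl 5 and 4.14, 4.25, 5.03, 6.69 and 5.14 in Alc 1 to Alc 5, with no overlap. Mvk rose by 0.72 ± 0.12 (1.90-fold, adjusted p = 7.6e-04). Of the 8 mevalonate and isoprenoid genes Mvk alone rose and Hmgcs1 alone fell, beside 10.6% and 22.8% of all tested genes. Such counts do not set this list apart from all genes. Acat2, the cytosolic thiolase that starts the pathway, Pmvk, Mvd, Idi1 and Fdps, which lead on to farnesyl diphosphate, had log2 fold changes of 0.29 to 0.52, and Ggps1, which makes geranylgeranyl diphosphate, was -0.24 ± 0.12 (adjusted p from 0.071 to 0.48 for these 6). Acat2 passed without Alc 1 or without Alc 3 (adjusted p = 0.017 and 0.049) and Pmvk without Alc 3 (adjusted p = 0.023). Acat2 also passed under each of the 3 other scalings and with library weights (adjusted p = 0.022 to 0.042), and Pmvk with equal library sums and with library weights (adjusted p = 0.039 and 0.031). Acat2 has a close copy, Acat3, which averaged 164 FPKM in Ctrl, 215 in Alc and 152 in Alc UA, so how reads were split between them is uncertain.

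From squalene onward, 3 of 12 enzymes rose and 1 fell, beside 10.6% and 22.8% of all tested genes. Fdft1, squalene synthase, was 13.7, 16.96, 16.01, 12.8 and 15.8 FPKM in Ctrl 1 to Ctrl 5 and 20.1, 26.8, 26.5, 30.0 and 30.2 in Alc 1 to Alc 5, a clear separation. Fdft1 rose by 0.78 ± 0.11 (1.77-fold, adjusted p = 2.1e-04). Its exons overlap those of Ctsb on the other strand by 774 bases in GENCODE M21, and the sources used here do not say whether counting used strand. Ctsb, a lysosomal protease gene, was 359 ± 61.4 in Alc and 336 ± 85.8 in Ctrl (log2 fold change 0.11 ± 0.16, adjusted p = 0.61). Lss was 1.55, 2.38, 2.15, 1.79 and 1.78 in Ctrl 1 to Ctrl 5 and 2.64, 2.47, 2.59, 3.42 and 4.25 in Alc 1 to Alc 5, a narrow gap between the groups. Lss rose by 0.46 ± 0.12 (adjusted p = 0.010), and did not pass once Ctrl 1, Ctrl 5 and Alc 4 were left out (adjusted p = 0.087). In the same annotation Cyp51 and Akap9 overlap by 166 bases on opposite strands, and exons of Hmgcs1, Idi1, Lss and Scap overlap opposite-strand transcripts that have no row in the table, so these levels share the uncertainty. Fdps overlaps Gm43738, which has no row, by 1124 bases and Tm7sf2 overlaps Vps51 by 14 bases, both on the same strand, where counting by strand would not separate them.

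Sc5d, the desaturase near the end of the pathway, was 66.8, 71.3, 71.9, 57.5 and 79.5 FPKM in Ctrl 1 to Ctrl 5 and 84.8, 93.7, 79.0, 116 and 86.8 in Alc 1 to Alc 5. Only Alc 3 fell below the highest control. Sc5d rose by 0.40 ± 0.12 (adjusted p = 0.019; 0.053 without Ctrl 4). Lbr and Tm7sf2 encode a pair of sterol reductases with the same reaction, LBR in the nuclear envelope. Lbr was 4.63, 3.70, 3.41, 3.65 and 2.39 in Ctrl 1 to Ctrl 5 and 1.32, 1.84, 1.68, 2.80 and 2.18 in Alc 1 to Alc 5, so that Alc 4 was above Ctrl 5 alone.

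Lbr fell by 0.62 ± 0.15 (adjusted p = 0.0058), while Tm7sf2 was 54.1 ± 22.3 in Ctrl and 53.8 ± 16.4 in Alc (0.01 ± 0.31, adjusted p = 0.98). The ratio of Tm7sf2 to Lbr was 7.07 to 38.1 in Ctrl and 16.5 to 36.0 in Alc. Within Ctrl the highest and lowest Lbr values were in Ctrl 1 and Ctrl 5. These libraries also had the highest and lowest summed markers of sinusoidal endothelial cells (522 and 183 FPKM). The same held for Kupffer cells and macrophages (447 and 64.9) and for lymphocytes (63.0 and 11.5). The part of any of these cells in the Lbr result was not tested. Dhcr7, the last reductase before cholesterol, lay wholly above Ctrl (9.24 to 14.7 in Alc against 7.70 to 8.66), but its log2 fold change of 0.38 ± 0.15 did not pass (adjusted p = 0.059). Dhcr7 passed without Alc 3 or Alc UA 5 (adjusted p = 0.043 and 0.035) and under each of the 3 other scalings (adjusted p = 0.0087 to 0.023). It also passed with library weights and with only the 2 groups fitted (adjusted p = 0.030 and 0.038).

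The other squalene and sterol genes did not pass. Sqle was 2.67 ± 0.368 in Ctrl and 2.82 ± 1.49 in Alc, Cyp51, the lanosterol demethylase, 7.33 ± 1.96 and 6.64 ± 3.22, and Msmo1, the methyl sterol oxidase, 12.8 ± 3.76 and 22.3 ± 11.97. Nsdhl, the decarboxylating dehydrogenase of the same demethylation, was 5.56 ± 1.32 and 9.47 ± 4.0, and Hsd17b7, the ketoreductase, 9.68 ± 1.93 and 7.53 ± 0.901. Adjusted p for these and Ebp ran from 0.089 to 0.93. Nsdhl passed without Alc 3 (adjusted p = 0.022) and Hsd17b7, as lower, without Ctrl 1 (adjusted p = 0.022), and each passed with library weights (adjusted p = 0.026 and 0.0015).

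Transport genes gave 4 risers of 7 and none that fell, beside 10.6% and 22.8% of all tested genes. Abcg5 and Abcg8 encode partner subunits of a pump that moves sterols into bile and the gut. Abcg8 was 13.0, 18.8, 16.5, 11.3 and 22.3 FPKM in Ctrl 1 to Ctrl 5, 28.5, 35.3, 29.2, 32.8 and 47.5 in Alc 1 to Alc 5, and 31.5, 33.4, 28.0, 35.5 and 34.6 in Alc UA 1 to Alc UA 5. No control reached the lowest alcohol library.

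Abcg8 rose by 1.05 ± 0.17 in Alc (2.12-fold, adjusted p = 4.6e-04). Abcg5 was 33.5, 29.2, 30.1, 27.0 and 28.7 in Ctrl 1 to Ctrl 5 and 41.0, 51.6, 45.9, 47.7 and 61.8 in Alc 1 to Alc 5, also apart. It rose by 0.71 ± 0.12 (1.67-fold, adjusted p = 7.2e-04). The ratio of Abcg5 to Abcg8 was 1.29 to 2.58 in Ctrl, 1.30 to 1.57 in Alc and 1.26 to 1.67 in Alc UA, so it varied more among controls than among mice on alcohol. Abcg5 and Abcg8 exons overlap by 40 bases on opposite strands in GENCODE M21.

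Abca1 was 9.5, 8.17, 10.9, 7.11 and 9.62 FPKM in Ctrl 1 to Ctrl 5 and 15.4, 13.3, 14.8, 15 and 13.98 in Alc 1 to Alc 5, with Alc tightly grouped above Ctrl. Abca1 rose by 0.63 ± 0.12 (1.60-fold, adjusted p = 0.0019). Scarb1, the SR-BI gene, was 56.4, 48.8, 66.7, 43.5 and 63.0 in Ctrl 1 to Ctrl 5 and 92.2, 90.5, 99.4, 55.5 and 86.7 in Alc 1 to Alc 5. Alc 4 lay within the controls and the other 4 above them. Scarb1 rose by 0.59 ± 0.15 (1.52-fold, adjusted p = 0.0089).

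Stard4, a soluble sterol carrier induced by SREBP2, was 5.80 ± 1.52 in Ctrl and 8.11 ± 1.66 in Alc (0.43 ± 0.17, adjusted p = 0.067) and passed without Ctrl 5 or without Alc 3 (adjusted p = 0.020 and 0.034), as well as with size factors, equal library sums and library weights (adjusted p = 0.019 to 0.048). Soat2, which esterifies cholesterol inside hepatocytes, was 18.4 ± 4.84 and 18.2 ± 3.25, and Lcat was 286 ± 16.95 and 293.5 ± 13.2 (adjusted p = 0.98 and 0.79). Abca1 is also expressed by macrophages and endothelial cells and Scarb1 by endothelial cells. In Alc against Ctrl 13 of 14 endothelial markers fell. Of the 12 Kupffer and macrophage markers 0 passed by limma (1 at an unadjusted p under 0.05), while all 12 log2 fold changes were above 0 (median 0.35). Of all tested genes 10.6% rose and 22.8% fell. Summed Kupffer and macrophage markers averaged 219 FPKM in Ctrl, where Ctrl 5 was lowest at 64.9, and 237 in Alc. The part of endothelial cells and macrophages in the Abca1 and Scarb1 results was not tested.

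**Figure D3:**
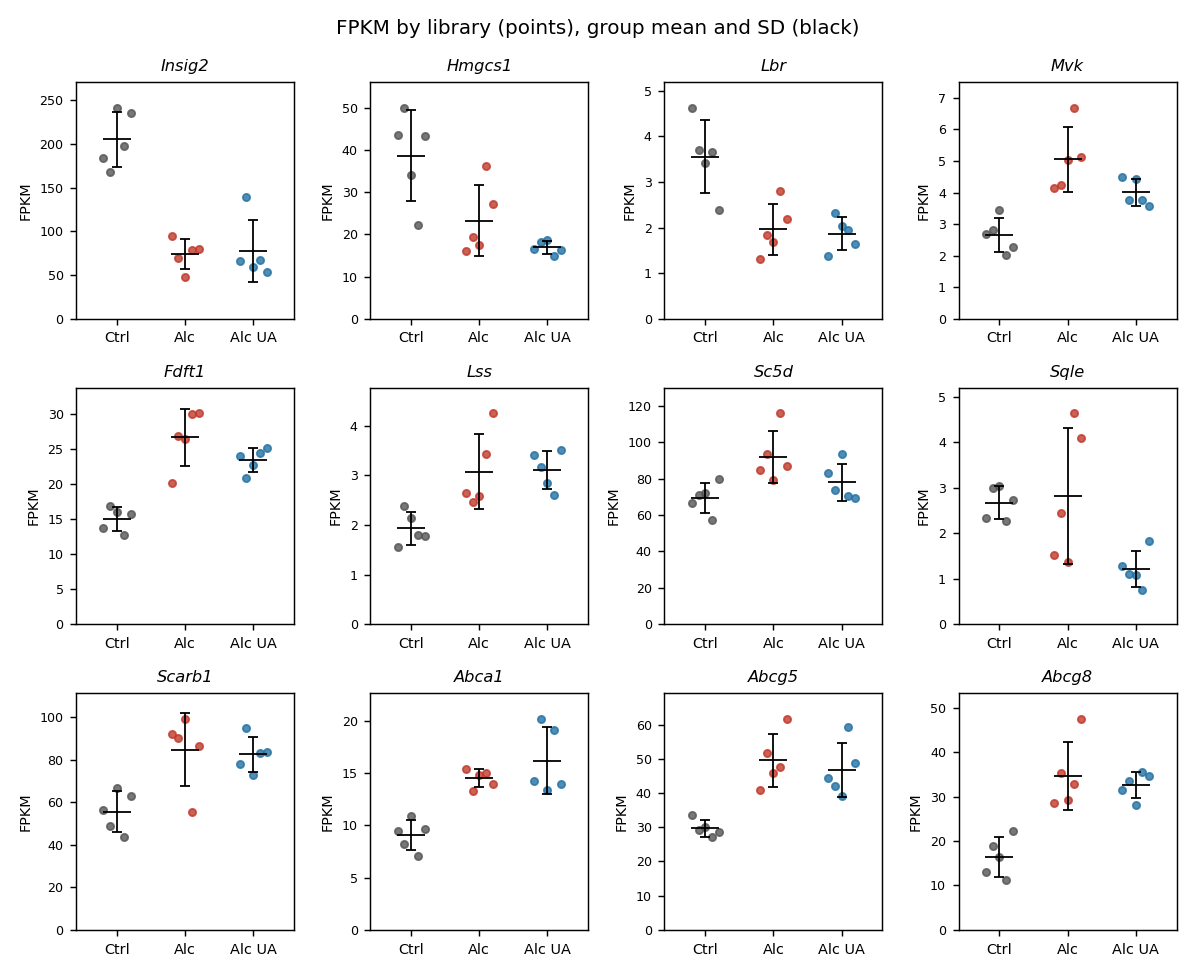
FPKM in each of 15 libraries (points) with group mean and SD (black) for 12 genes, grouped by diet. Insig2, Hmgcs1 and Lbr are lower and Fdft1, Mvk, Abca1, Abcg5 and Abcg8 higher in the alcohol groups, and Sqle spans 1.38 to 4.64 within Alc.

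Other genes of the pathway were counted from 6 lists, beside 10.6% of all tested genes that rose in Alc and 22.8% that fell. Of 17 genes for SREBP proteases and retention or turnover in the endoplasmic reticulum, 4 rose and 3 fell in Alc (median log2 fold change -0.05). Syvn1, an ubiquitin ligase of that organelle, fell by 0.56 ± 0.09 and Aup1, a lipid droplet protein of the same degradation route, fell by 0.37 ± 0.10 (adjusted p = 6.3e-04 and 0.014). Of 15 isoprenoid branch and sterol side enzymes tested of 18 listed, 3 rose and 1 fell; Por, the reductase that supplies electrons to SQLE and CYP51 as well as to drug-metabolising P450s, was 299 in Alc and 125 in Ctrl (mean FPKM, log2 fold change 1.27 ± 0.15, adjusted p = 6.2e-05), and Rabggtb, a prenyltransferase subunit gene, fell by 0.38 ± 0.11 (adjusted p = 0.014).

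Of 7 genes for LXR, its partner and its targets outside the 31, 1 rose and 1 fell (median -0.10). The shares of all tested genes were 10.6% and 22.8%, for this list and those that follow. Rxra, the partner receptor, rose by 0.53 ± 0.11 and Mylip, an LXR-induced ubiquitin ligase, fell by 1.03 ± 0.22 (adjusted p = 0.0022 and 0.0028). Of the other LXR targets on the list, Lpcat3 was 0.20 ± 0.13 and Abcg1 -0.10 ± 0.24, and neither passed (adjusted p = 0.25 and 0.77). The part of LXR in these values was not tested. In the list of lysosomal and intracellular sterol transport, 3 of 15 rose and 1 fell, with Osbpl2 at 0.33 ± 0.08 and Stard5 at 0.50 ± 0.13. Of 10 lipoprotein receptor and remodelling genes, 3 rose and 0 fell, with Lrp1 at 0.53 ± 0.14, and of 5 cholesteryl ester hydrolases 2 rose, Lipe at 0.54 ± 0.10 and Ces1g at 1.42 ± 0.31 (adjusted p from 0.0011 to 0.011 for these 5 genes).

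When UA was added to the alcohol diet, 0 of the 31 genes rose or fell against Alc by limma, while 0.00912% of all tested genes rose and 0.00% fell. At an unadjusted p under 0.05, 0 of the 31 were higher and 6 lower (Sqle, Nsdhl, Acat2, Dhcr7, Pmvk and Mvk), and 1.42% and 4.64% of all tested genes were. Log2 fold changes were below 0 for 27 of the 31 and for 65.0% of all tested genes, with medians of -0.23 and -0.05. With median-of-ratios size factors 22 of the 31 were below 0, with medians of -0.16 for the 31 and 0.0099 for all tested genes. All 31 genes overlapped between the groups, while 0.283% of all tested genes lay wholly higher in Alc UA and 0.894% wholly lower.

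Sqle and Nsdhl had the largest differences, with Sqle first over all libraries and Nsdhl first without Alc 4 (-0.57). Sqle was 1.52, 2.45, 1.38, 4.64 and 4.10 FPKM in Alc 1 to Alc 5 and 1.29, 1.11, 1.08, 0.76 and 1.83 in Alc UA 1 to Alc UA 5. Alc 2, Alc 4 and Alc 5 were above every Alc UA library, and Alc 1 and Alc 3 were within the Alc UA range. The log2 fold change of -0.71 ± 0.21 did not pass (adjusted p = 0.65; -0.55 without Alc 4).

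Nsdhl was 6.11, 12.5, 4.22, 12.7 and 11.8 in Alc 1 to Alc 5 and 5.92, 3.81, 6.29, 2.87 and 7.40 in Alc UA 1 to Alc UA 5, again with Alc 2, Alc 4 and Alc 5 on top (-0.70 ± 0.28, adjusted p = 0.81). Fdps (-0.60 ± 0.34), Idi1 (-0.59 ± 0.29), Acat2 (-0.49 ± 0.21), Msmo1 (-0.48 ± 0.33) and Tm7sf2 (-0.48 ± 0.31) came next, all with adjusted p of 0.82 or more. Efflux and uptake genes differed less: Abcg8 was -0.07 ± 0.17, Abcg5 -0.08 ± 0.12, Scarb1 -0.02 ± 0.15 and Abca1 0.13 ± 0.12. Insig2, at 74.1 ± 16.98 in Alc and 77.1 ± 35.3 in Alc UA, was -0.0028 ± 0.23, with 1 high library, Alc UA 2, at 139 FPKM. In each of the 6 lists of other pathway genes 0 passed. At an unadjusted p under 0.05 there were 1 for SREBP proteases and turnover, 2 for isoprenoid branch and sterol side enzymes, 1 for lipoprotein receptors, 2 for ester hydrolases and 0 for LXR and for sterol transport. Of all tested genes 1.42% were higher and 4.64% lower at that threshold.

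**Figure D4:**
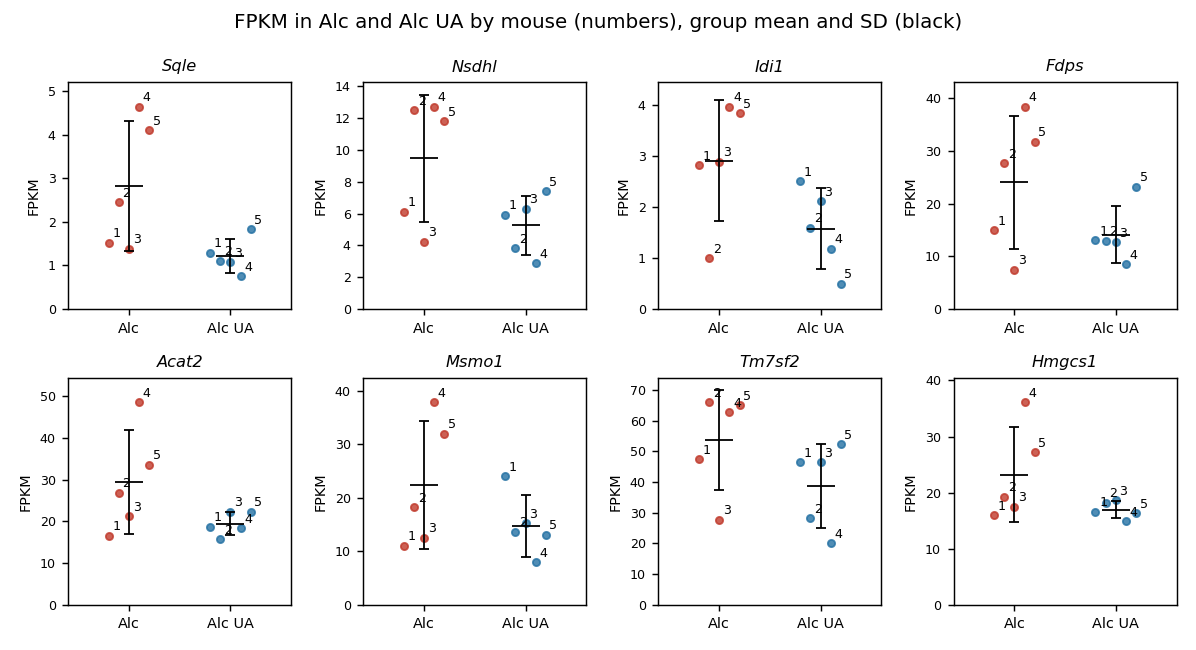
FPKM in Alc and Alc UA, numbered by mouse within each group, with group mean and SD (black), for the 8 synthesis enzymes with the largest mean log2 difference between them, picked after their values were seen. Alc 4 and Alc 5 lie at the top of Alc for Sqle, Fdps, Acat2, Idi1, Msmo1 and Hmgcs1, and the groups overlap for each gene.

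Within Alc, Alc 4 and Alc 5 stood high for many synthesis enzymes. Of the 20 mevalonate, isoprenoid, squalene and sterol enzymes, 13 had Alc 4 as the highest Alc library and 4 had Alc 5; for 13 of the 20 these 2 mice were the top pair. Alc 3 was the lowest for 9 and Alc 1 for 6. Alc 4 was among the 2 highest of its group for 17 enzymes and Alc 5 for 15, beside 16 for Ctrl 2 and 13 for Alc UA 3 in theirs. Alc UA 3 was the highest of its group for 4. Such ranks were not taken over all tested genes. Averaged over the 12 squalene and sterol enzymes, log2(FPKM + 1) differed from the Ctrl mean by -0.11, 0.17, -0.20, 0.52 and 0.44 in Alc 1 to Alc 5, by 0.06, -0.12, 0.01, -0.39 and -0.07 in Alc UA 1 to Alc UA 5, and by -0.15 to 0.18 in Ctrl. The median coefficient of variation of the 20 enzymes was 29.5% in Alc, 20.2% in Ctrl and 18.7% in Alc UA, and for the 7 transport genes it was 17.8%, 17.3% and 16.8%. These spreads are descriptions of 5 libraries each and were not tested. Within Alc the steadiest genes were Scap, Lcat and Ebp, with coefficients of variation of 4.35%, 4.49% and 5.23%, and the most variable were Msmo1, Sqle and Fdps, at 53.7%, 52.8% and 52.4%. Alc 4 also had the highest second principal component, and its part in these values was not tested beyond the values given without it.

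Alc UA was also compared with Ctrl, with the same control libraries as above, so the comparisons are not independent. In Alc UA 7 of the 31 rose and 6 fell against Ctrl, while 10.5% of all tested genes rose and 32.1% fell (42.6% either way). The median of the 31 was -0.04 and that of all tested genes -0.16. Quantile normalization gave 8 and 3, beside 22.1% and 22.2% of all tested genes, median-of-ratios size factors 9 and 4, beside 25% and 18.5%, and equal library sums 7 and 4, beside 12% and 23.2%. Under the first 2 of these scalings the share of the 31 that rose was thus near that of all genes. Alc UA lay wholly above Ctrl for 7 (5.48% of all tested genes) and wholly below for 4 (14.7% of all).

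Efflux and uptake genes stood at similar values in the pair of comparisons with Ctrl. Abcg8 rose by 0.98 ± 0.17 in Alc UA, Abca1 by 0.77 ± 0.12, Abcg5 by 0.63 ± 0.12 and Scarb1 by 0.57 ± 0.15 (adjusted p from 3.6e-04 to 0.0073), beside 1.05, 0.63, 0.71 and 0.59 in Alc. Abca1 was 14.3, 20.2, 13.4, 19.2 and 13.9 FPKM in Alc UA 1 to Alc UA 5, Abcg5 was 44.3, 42.1, 39.3, 59.3 and 48.9, and Scarb1 was 78.1, 94.9, 72.9, 83.4 and 83.6. Every one of these values was above every control.

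Insig2 fell by 1.48 ± 0.23 (adjusted p = 2.4e-04), Hmgcs1 fell by 1.10 ± 0.22 (adjusted p = 0.0013) and Lbr fell by 0.66 ± 0.15 (adjusted p = 0.0028). Hmgcs1 was 16.6, 18.2, 18.6, 14.9 and 16.4 FPKM in Alc UA 1 to Alc UA 5, all below the lowest control at 22.3, and Lbr was 1.38, 2.32, 2.04, 1.94 and 1.64, below the lowest control at 2.39. Among the enzymes, Fdft1 (24.1, 20.9, 22.8, 24.4 and 25.2 FPKM), Lss (3.41, 3.17, 2.85, 2.61 and 3.50) and Mvk (4.49, 3.75, 4.44, 3.78 and 3.57) lay above every control in each Alc UA library and rose by 0.61 ± 0.11, 0.49 ± 0.12 and 0.46 ± 0.12 (adjusted p = 6.9e-04, 0.0052 and 0.0078).

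Sqle fell against Ctrl in Alc UA, where its 5 values were all under the 2.33, 3.0, 3.05, 2.26 and 2.73 FPKM of Ctrl 1 to Ctrl 5 (0.74 ± 0.21 lower on the log2 scale, 2.2-fold, adjusted p = 0.012; 0.067 after quantile normalization). In Alc the log2 fold change of Sqle was -0.03 ± 0.21; as given above, the direct difference between Alc UA and Alc did not pass. Ggps1, at 4.31, 3.08, 4.64, 3.91 and 3.34 FPKM in Ctrl 1 to Ctrl 5 and 2.57, 3.72, 2.98, 3.29 and 2.02 in Alc UA 1 to Alc UA 5, fell by 0.32 ± 0.12 (adjusted p = 0.044). Ebp, at 99.5, 101, 92.0, 105 and 109.7 in Ctrl 1 to Ctrl 5 and 95.1, 82.0, 92.2, 90.1 and 79.3 in Alc UA 1 to Alc UA 5, fell by 0.21 ± 0.08 (adjusted p = 0.043). For both genes the groups overlapped, the calls ended under 19 and 17 of 26 alternatives (adjusted p = 0.052 to 0.25 and 0.0505 to 0.84), and with median-of-ratios size factors the Ebp value was 0.03. Sc5d, at 0.17 ± 0.12, did not pass in Alc UA (adjusted p = 0.27), and was 83.2, 73.7, 93.4, 70.3 and 69.6 FPKM in Alc UA 1 to Alc UA 5; with median-of-ratios size factors it passed (0.41, adjusted p = 0.024).

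The other 17 genes did not pass either, with log2 fold changes from -0.47 (Tm7sf2) to 0.33 (Stard4). Without Ctrl 5, Insig1 (0.60, adjusted p = 0.0067), Scap (0.28, adjusted p = 0.026) and Stard4 (0.44, adjusted p = 0.043) passed as higher. Scap also passed after quantile normalization, with size factors and with library weights (adjusted p = 0.044, 0.019 and 0.016), and with library weights Cyp51 and Soat2 passed as lower (adjusted p = 0.030 and 0.015). Of the other pathway lists, SREBP proteases and turnover gave 4 higher and 4 lower of 17, isoprenoid branch and sterol side enzymes 2 and 2 of 15, LXR and its targets 1 and 2 of 7, sterol transport 3 and 1 of 15, lipoprotein receptors 2 and 0 of 10 and ester hydrolases 2 and 0 of 5. Of all tested genes 10.5% rose and 32.1% fell in Alc UA against Ctrl. Por rose by 1.58 ± 0.15 and Dhdds, a dolichol synthesis gene, by 0.24 ± 0.08, while Mylip fell by 1.48 ± 0.22 (adjusted p = 7.2e-06, 0.018 and 1.8e-04). Syvn1 fell by 0.69 ± 0.09, Aup1 fell by 0.52 ± 0.10 and Gramd1a, a sterol transfer gene, fell by 0.71 ± 0.18, and Rxra rose by 0.60 ± 0.11, Stard5 by 0.51 ± 0.13, Lrp1 by 0.56 ± 0.14, Lipe by 0.52 ± 0.10 and Nceh1, a cholesteryl ester hydrolase gene, by 0.55 ± 0.15 (adjusted p from 1.0e-04 to 0.0083).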

How the data were processed

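Liver RNA of 15 mice was measured by RNA sequencing. What the authors deposited was a gene table in FPKM (18510 rows, 223 of them 0 in every mouse). The submitters' processing notes list HISAT2 2.1.0, RSEM 1.2.8, Bowtie2 2.2.5, DESeq and StringTie but not what each did. The sources used here do not give the build, annotation or strand setting, and no counts were given, so the depth is unknown and limits precision by an unknown amount. Columns were matched to mice by the group and replicate number in their names and titles.

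Values were analysed as log2(FPKM + 1) for the 10959 genes at 1 FPKM or more in at least 5 of 15 libraries. A linear model with 3 group means was fitted with limma 3.58.1 (R 4.3.3) with a trended variance prior, and p-values were adjusted over all genes within each comparison (threshold 0.05). The fit was tested on simulated data. The genes and lists were chosen with earlier results of these data known. The naming rule covered every one of the 31 genes and, in each other pathway list, the 2 called genes with the smallest p; 1 gene it covers is not reported here. The promoter motifs were chosen after the tests were run. Exon overlaps came from GENCODE M21. Alternatives to pseudocount, filter, scaling, variance prior, library weights, groups fitted, replicate block and libraries included were computed. Python 3.11.15 and matplotlib 3.10.9 drew the figures.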

Additional observations from a re-analysis of the deposited data

Results flagged for a closer look

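In 5 of the 93 sets of 5 libraries (31 genes in 3 groups), 1 library stood far from the other 4 by Dixon's 95% criterion, and chance alone flags about 1 set in 20. Insig1 was 66.74 FPKM in Ctrl 5, with the next control at 18.3. Insig2 was 139.38 FPKM in Alc UA 2, with the next library at 67.4. Pmvk was 8.06 FPKM in Ctrl 1, under the next lowest at 11.3. Cyp51 was 3.64 FPKM in Alc UA 4, under the next lowest at 5.52. Scarb1 was 55.46 FPKM in Alc 4, under the next lowest at 86.7. The causes were not tested.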

How the results depend on the processing

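The counts of genes risen and fallen stayed within 1.5 times of the reported counts under most of the 26 alternatives. The exceptions were library weights, which gave 14 risers in Alc against Ctrl in place of 8, leaving out Alc 3, which gave 13, and quantile normalization, which gave 3 fallers in Alc UA against Ctrl in place of 6. The causes were not tested. Leaving out each library in turn gave 7 to 13 risers and 2 to 4 fallers in Alc against Ctrl. The shares of all tested genes were then 7.73% to 11.3% and 15.8% to 30.7%. In Alc UA against Ctrl there were 7 to 10 risers and 4 to 6 fallers, beside 8.06% to 11.7% and 25.5% to 38.3%. In Alc UA against Alc the counts were 0 under every one of the 26 alternatives. For Ebp in Alc UA against Ctrl the log2 fold change turned from -0.21 to 0.033 with median-of-ratios size factors. The values showed no pairing of mice by replicate number. Deviations of same-numbered libraries correlated at -0.30 to 0.29, beside -0.345 to 0.339 for libraries of other numbers. Of 15 libraries 1 correlated best with its own number in the other groups. The labels do not say whether equal numbers mark paired mice. With the replicate block 8 genes rose and 3 fell in Alc against Ctrl, beside 9.67% and 22.8% of all tested genes. With it 7 rose and 4 fell in Alc UA against Ctrl, beside 9.59% and 31.8%, and 0 and 0 changed in Alc UA against Alc. Over all genes the split of 1157 higher and 2497 lower in Alc against Ctrl became 2049 and 2024 after quantile normalization. Depth is unknown, so weakly expressed genes such as Mvd, Idi1, Sqle and Lss carry a counting error that cannot be given.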
